A study of Mus musculus with 44 samples.

Results

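The genes described here encode the machinery that fuses synaptic vesicles with the presynaptic membrane, together with their closest relatives. They were taken by name from the expression table: every row whose symbol starts with Syt, Stx, Vamp, Snap, Cplx, Rims or Rab3 followed by another letter or digit, without the Snapc genes, plus Sv2a, Sv2b, Sv2c, Syn1, Syn2, Syn3, Syp, Nsf, Napa, Napb, Unc13a, Bsn and Pclo. This gave 74 of the 8203 genes in the table. Syn3 was among the named genes and had no row. Because the rule works on letters it also took 8 Rab genes with numbers from 30 to 39, which are not Rab3 genes, and Snap91, a clathrin adaptor that shares only its symbol with the SNAP proteins.

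Libraries came from CRH-TRAP mice, in which translating ribosome affinity purification (TRAP) isolates mRNA bound to tagged ribosomes of neurons that make corticotropin-releasing hormone (Crh). The Cre driver strain, B6;FVB-Tg(Crh-cre)1Kres/J, had been bred to a reporter whose eGFP-L10a needs Cre, and all animals in all groups were first-generation offspring heterozygous for both, aged 10 to 16 weeks. Tone alone (TA) controls heard 5 tones with the shock generator off. Fear conditioned (FC) mice received 5 tone-shock pairings, and extinction (EXT) mice received the same pairings and on the following day 30 tones without shock in another context. Mice were killed 2 h after their last session, so EXT mice differed from TA mice in conditioning, in extinction, in the extra day and in an overnight return to the animal facility, and these cannot be told apart. Each library was 1 animal: 16 TA (10 male, 6 female), 12 FC (6 male, 6 female) and 16 EXT (10 male, 6 female). The tagged cells are those in which the Crh promoter fragment of the transgene drove Cre, and punches of 1 mm were centred over the amygdala.

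In a resting terminal, vesicles are tethered at the active zone by scaffolds such as Rims1, Bsn and Pclo, and are primed by Unc13a. The vesicle SNARE Vamp2 then zips up with Stx1a and Snap25 on the plasma membrane, complexins hold the assembled complex, and calcium binding to Syt1 triggers fusion. Afterwards the ATPase Nsf and its adaptors Napa and Napb pull the SNARE complex apart so that its parts can be used again.

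Library sizes recovered from the values were 12802113 to 20440351 reads, with a median of 15412341 in EXT against 18015590 in TA. The labels give a batch number, and the batches were uneven across conditions: batch 1 held 4 TA, 5 FC and 2 EXT libraries, batch 2 held 5, 2 and 3, batch 5 held 7, 5 and 5, while batches 3 and 4 held 5 and 1 EXT libraries and no control. For those 6 libraries batch and condition cannot be told apart. Of the 10 markers fixed for Crh and inhibitory neurons of the central amygdala 9 were in the table, with Crh at a median of 5.73 log2 CPM (counts scaled to library size) in TA and 5.03 in EXT, and 5 of the 9 were lower in EXT at a false discovery rate (FDR) of 0.05 in limma with batch as a number, the fit behind all calls in this paragraph. In that fit 11% of all 8203 genes were lower at FDR and 10.4% higher. The median log2 fold change of the 9 was -0.61 with batch as a number and -0.21 with batch as categories. No marker of microglia (7 fixed) or endothelium (4 fixed) was in the table, whereas all 7 astrocyte and 6 of 7 oligodendrocyte markers were, with 1 astrocyte gene higher and no oligodendrocyte gene called in EXT. Of 6 glutamatergic markers 2 were in the table and neither was called. Choroid plexus RNA, with 4 of its 8 markers in the table, ran from 7.54 to 15.64 in EXT and from 7.55 to 14.75 in TA as a summed log2 level, with no gene called. The mitochondrial transcripts and Malat1 were higher in EXT at FDR for 9 of 9 genes, with a median summed log2 level of 11.29 in EXT and 9.85 in TA, and a median log2 fold change of 2.22 with batch as a number and 0.54 with categories. Their part in the results below was not tested other than by the covariate fits given with the results.

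Counted reads per member and library ran from 71 to 96984, with 1 member, Vamp8, under 100 reads in any library, so counting error was small for nearly all members. Per length of exon the highest member was Snap25, the plasma membrane SNARE of neurons, at a median of 634 CPM per kb of exon (lowest library 285, highest 863). The next places were held by Vamp2 (595), Rab3a (482), Cplx1 (336) and Snap47 (234). The ranges of neighbours in this order overlapped, so the order of these genes is not set apart from the spread between libraries. Syt5, Syt11 and Syt1 led the synaptotagmins at 121, 88.6 and 44.3. The active zone genes were low on this scale, with Pclo at 0.848 and Bsn at 0.66. These 2 and Stxbp5 also have the longest annotated exons among members, 22457, 15938 and 16513 bases. Exon lengths are those of GENCODE M21, which had a single gene on the chromosomes for 73 members and none for Vamp7.

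**Figure D1:**
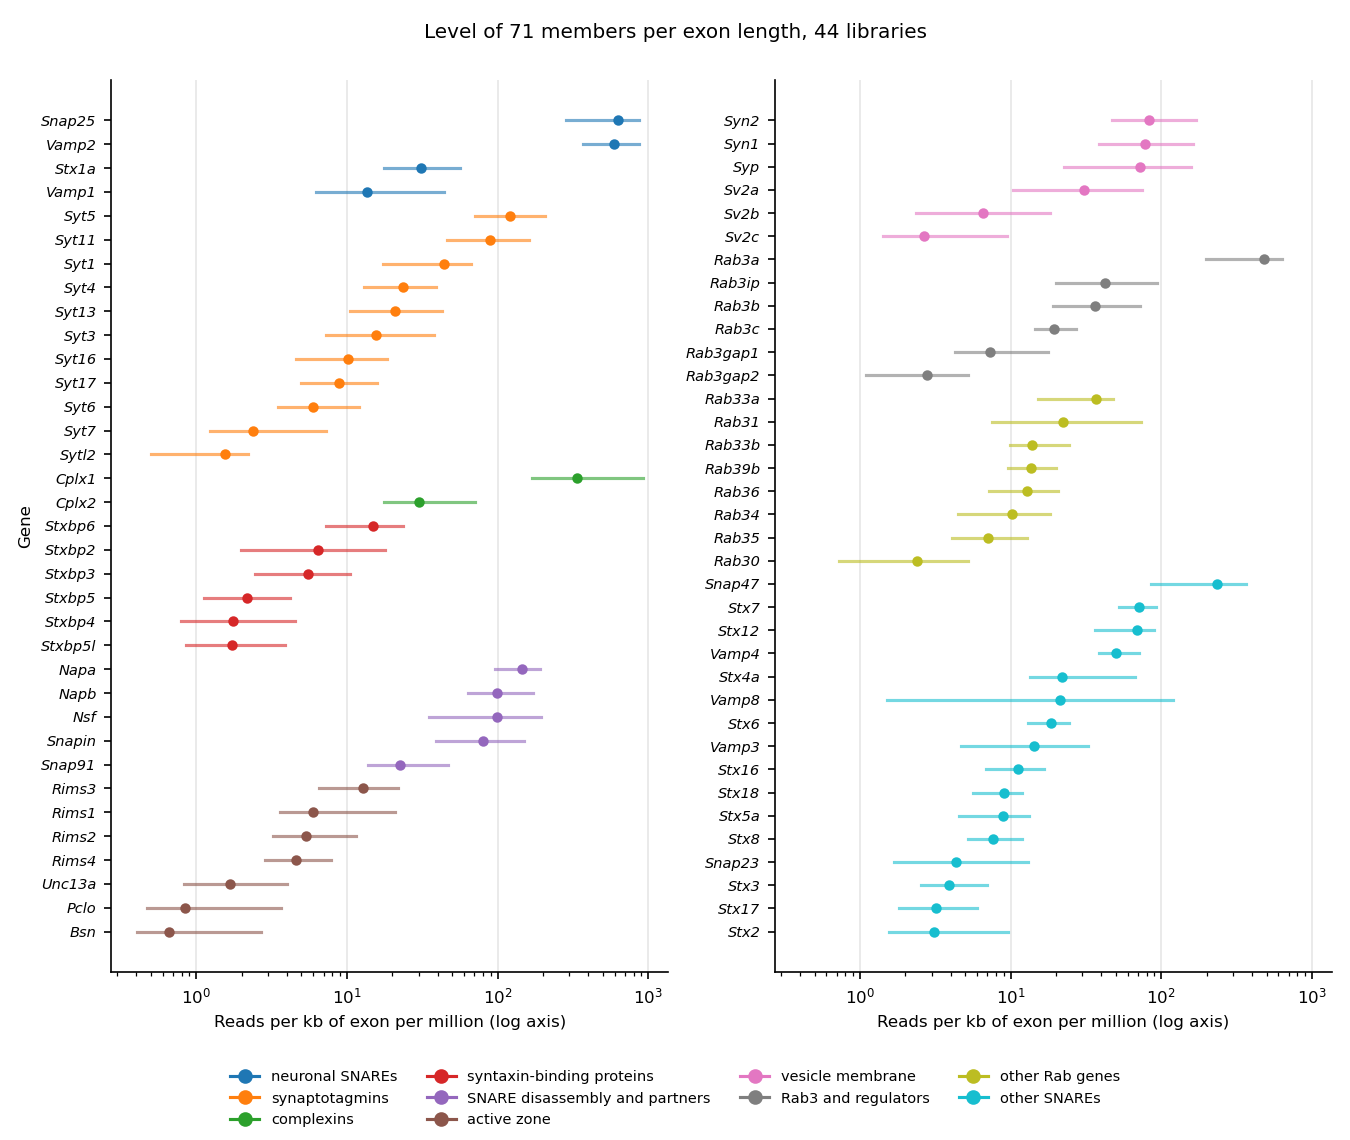
CPM per kb of exon for 71 members in 44 libraries on a log axis, grouped by role. The point is the median and the line runs from the lowest to the highest library. Snap25, Vamp2, Rab3a, Cplx1 and Snap47 stand highest and Bsn and Pclo lowest.

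The first comparison asked which members differed after extinction from the tone control. With batch as a number and sex in the fit, 15 of 74 members passed the FDR of 0.05 in limma. That is 20.3% of members, next to 21.4% of all 8203 genes, so the share was near that of any gene. Of the 15, 9 were lower in EXT (11% of all genes were) and 6 were higher (10.4% of all genes were). Among the lower were Nsf, Snap47, Syn1, Snap91, Rab3b, Rab3a, Stx12 and Stxbp5, and higher were Bsn, Pclo, Stx2, Snapin, Stx4a and Rims1. Of all 74, 47 (63.5%) had a negative and 27 a positive log2 fold change, where 49.2% of all genes had a negative one. The median was -0.08 against 0.01 over all genes. In bulk RNA of this kind, fewer tagged cells that use a gene and less of its mRNA per cell cannot be told apart. No member's EXT and TA ranges were apart, and no gene of the 8203 was.

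These calls did not hold when the batches were handled in another way. With batch as categories, which compares EXT with TA only within batches 1, 2 and 5, 0 members and 2 of all genes passed the FDR in limma. At an unadjusted p of 0.05, 19 members did, 15 lower and 4 higher, where 21.1% of all genes did (11% lower, 10.2% higher). The 15 lower included Rab3gap1, Stxbp5l, Snap91, Rab3gap2, Syn1, Stxbp5, Snap47, Nsf, Napb, Unc13a, Rab3b, Stx12, Rims3 and Syn2, and the 4 higher were Cplx2, Snapin, Syt7 and Bsn. Leaving out batches 3 and 4 gave 0 members and 3 of all genes at FDR, with 18 members at the unadjusted p, 24.3% where 18.8% of all genes were. A log2 library size covariate left no gene of the table at FDR and 4 members at the unadjusted p, 5.41% where 5.47% of all genes were. A covariate for the mitochondrial transcripts and Malat1 also left no gene at FDR, with 17 members at the unadjusted p, 23.0% where 15.8% of all genes were.

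**Figure D2:**
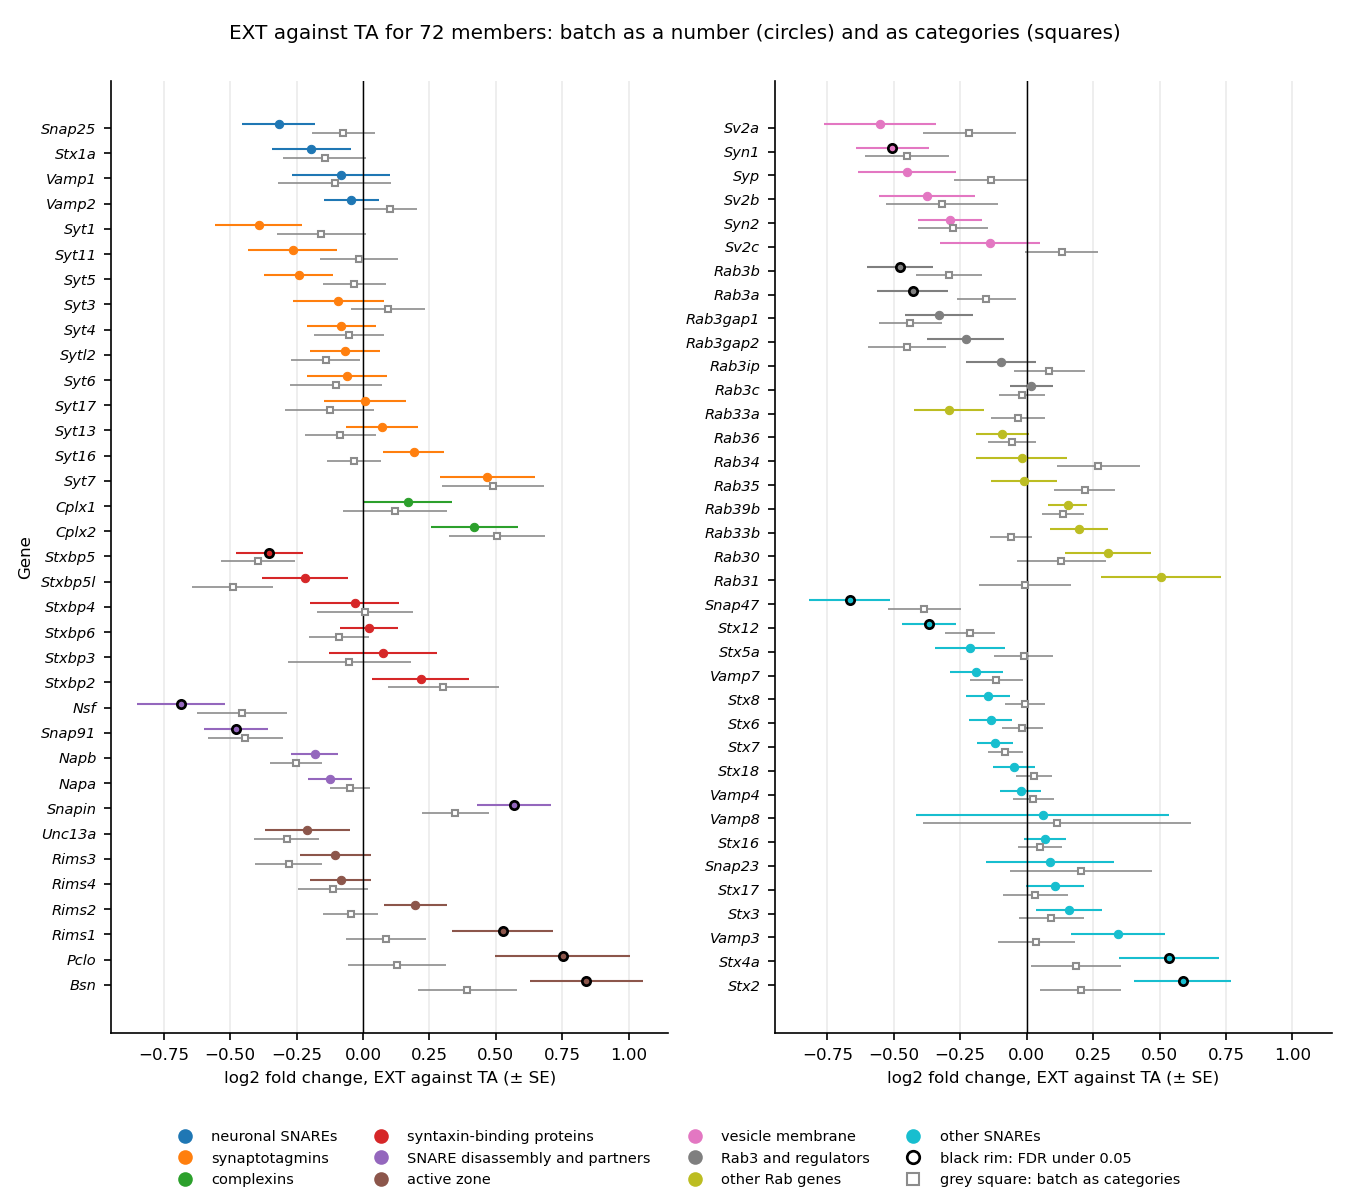
Log2 fold change of EXT against TA ± SE for 72 members, grouped by role. Circles have batch as a number, with a black rim for members past the FDR (14 of those drawn), and grey squares have batch as categories, under which none passed.

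Of the 5 neuronal SNAREs none passed the FDR in EXT against TA, and their log2 fold changes ran from -0.32 to -0.04. Snap25 read 11.38, 12.09 and 12.37 in the lowest, median and highest TA library, 11.22, 12.11 and 12.52 in FC and 10.92, 11.87 and 12.39 in EXT, on the scale of log2 CPM used for all levels from here on. The 3 levels given for a group are always its lowest, median and highest library, and a value ± SE is a log2 fold change, of EXT against TA unless another comparison is named. The EXT median was a little lower, with 11 of 16 EXT libraries under the TA median, and the fold change was -0.32 ± 0.14 (limma adjusted p = 0.0875) with batch as a number and -0.07 ± 0.12 with categories. Vamp2, its partner on the vesicle, read 10.63, 11.13 and 11.69 in TA, 10.46, 11.24 and 11.53 in FC and 10.72, 11.12 and 11.64 in EXT. Its EXT libraries split evenly around the TA median, and the fold change of -0.04 ± 0.10 turned to 0.10 ± 0.10 with categories. Stx1a, a plasma membrane partner of both, also overlapped between groups. It read 5.82, 6.36 and 7.05 in TA, 5.63, 6.39 and 7.22 in FC and 5.55, 6.37 and 7.15 in EXT, with -0.19 ± 0.15 (limma adjusted p = 0.344) and -0.14 ± 0.16 with categories. Vamp1, a vesicle SNARE of fast synapses, read 6.70, 7.18 and 8.03 in TA, 5.99, 6.89 and 8.71 in FC and 6.25, 7.08 and 8.80 in EXT, with -0.08 ± 0.18 (limma adjusted p = 0.766) and -0.11 ± 0.21 with categories.

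None of the 11 synaptotagmins, the vesicle and membrane proteins that mostly sense calcium, passed the FDR. Syt1, the sensor for fast release, read 8.02, 8.61 and 8.82 in TA, 8.17, 8.51 and 8.86 in FC and 7.17, 8.23 and 9.12 in EXT. The fold change was -0.39 ± 0.16 (limma adjusted p = 0.0767), and -0.16 ± 0.17 with categories. Syt7, a slow high-affinity sensor, lay the other way: 3.22, 3.96 and 4.80 in TA, 3.35, 4.09 and 5.19 in FC and 3.45, 4.43 and 5.77 in EXT, with 12 of 16 EXT libraries over the TA median. Its fold change was 0.47 ± 0.18 (limma adjusted p = 0.0573) and 0.49 ± 0.19 with categories (unadjusted p = 0.0168). Syt4 and Syt11, which are poor calcium sensors, had -0.08 ± 0.13 and -0.26 ± 0.17, and Syt5 had -0.24 ± 0.13. The remaining synaptotagmins, Syt3, Syt6, Syt13, Syt16, Syt17 and the synaptotagmin-like Sytl2, lay between -0.09 and 0.19.

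Both complexins, which clamp and promote fusion by binding the SNARE complex, had positive fold changes and neither passed the FDR. Cplx2 read 6.44, 7.13 and 7.92 in TA, 6.78, 7.11 and 8.05 in FC and 6.70, 7.52 and 8.46 in EXT, and 11 of 16 EXT libraries were over the TA median. The fold change was 0.42 ± 0.16 (limma adjusted p = 0.0603) and 0.50 ± 0.18 with categories (unadjusted p = 0.00874), and the EXT mean was higher in each of batches 1, 2 and 5. Cplx1 was more abundant and had 8.57, 9.52 and 10.01 in TA, 8.53, 9.33 and 10.95 in FC and 8.56, 9.59 and 10.98 in EXT, with 0.17 ± 0.17 (limma adjusted p = 0.471) and 0.12 ± 0.19 with categories.

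Among the 7 syntaxin-binding genes 2 passed the FDR, both lower, where 21.4% of all genes passed. Stxbp5 (tomosyn), an inhibitor of SNARE assembly, read 4.94, 5.20 and 5.96 in TA, 4.50, 5.19 and 5.86 in FC and 4.21, 4.90 and 6.11 in EXT. Its fold change of -0.35 ± 0.13 (limma adjusted p = 0.0455) did not shrink with categories, at -0.39 ± 0.14. The second tomosyn, Stxbp5l, had -0.22 ± 0.16 with batch as a number and -0.49 ± 0.15 with categories (unadjusted p = 0.00287), so that both tomosyns were under the unadjusted p in that fit. Stxbp2, Stxbp3, Stxbp4 and Stxbp6, whose main roles are known outside the synapse or are less clear, had 0.22 ± 0.18, 0.08 ± 0.20, -0.03 ± 0.17 and 0.02 ± 0.11.

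Of the 5 disassembly genes and SNARE partners 3 passed the FDR, 2 lower and 1 higher, where 21.4% of all genes passed. Nsf, the ATPase that separates spent SNARE complexes, read 9.62, 9.96 and 10.16 in TA, 8.82, 9.67 and 10.20 in FC and 8.19, 9.35 and 10.67 in EXT. TA libraries were tightly grouped, 15 of 16 EXT libraries were under their median, and the remaining EXT library was the highest of all 44. Its fold change was -0.69 ± 0.17 (limma adjusted p = 0.013) and -0.46 ± 0.17 with categories (unadjusted p = 0.011). The adaptors that bring Nsf to the complex had smaller fold changes. Napa read 8.65, 9.15 and 9.31 in TA, 8.50, 9.10 and 9.49 in FC and 8.53, 9.05 and 9.20 in EXT, with -0.12 ± 0.08 (limma adjusted p = 0.266) and -0.05 ± 0.07 with categories. Napb read 9.24, 9.57 and 9.76 in TA, 8.82, 9.46 and 9.85 in FC and 8.82, 9.37 and 10.24 in EXT, with -0.18 ± 0.09 (limma adjusted p = 0.13) and -0.25 ± 0.10 with categories. Snap91 (AP180), which recruits clathrin to take vesicle membrane back up, read 7.55, 7.91 and 8.48 in TA, 6.99, 7.61 and 8.38 in FC and 6.99, 7.30 and 8.74 in EXT. Its medians stepped down from TA to FC to EXT with overlapping ranges, and its fold change was -0.48 ± 0.12 (limma adjusted p = 0.0139) and -0.44 ± 0.14 with categories. Snapin, which binds Snap25 and is also a subunit of the BLOC-1 complex of lysosome-related organelles, was higher: 6.49, 7.24 and 7.91 in TA, 6.49, 7.46 and 8.15 in FC and 7.05, 7.62 and 8.42 in EXT, with 0.57 ± 0.14 (limma adjusted p = 0.013) and 0.35 ± 0.13 with categories (unadjusted p = 0.00982).

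The 7 active zone genes split, and 3 passed the FDR, where 21.4% of all genes did. The scaffolds Bsn and Pclo, giant proteins that organise the site of release, and Rims1, which links vesicles to calcium channels, were higher at FDR. Bsn read 2.87, 3.32 and 4.08 in TA, 2.69, 3.48 and 5.43 in FC and 2.77, 4.20 and 5.33 in EXT, with 0.84 ± 0.21 (limma adjusted p = 0.0139) and 0.39 ± 0.19 with categories. Pclo read 3.65, 4.08 and 4.92 in TA, 3.65, 4.31 and 5.24 in FC and 3.41, 4.61 and 6.35 in EXT, and 0.75 ± 0.25 (limma adjusted p = 0.0344) became 0.13 ± 0.18 with categories. Rims1 read 5.04, 5.44 and 5.63 in TA, 4.87, 5.43 and 6.10 in FC and 4.73, 5.58 and 7.27 in EXT, with 0.53 ± 0.19 (limma adjusted p = 0.0463) and 0.09 ± 0.15 with categories. For these 3 genes the 6 EXT libraries of batches 3 and 4 were mostly the high ones: Pclo was at a median of 5.90 in them and 4.10 in the other 10, and Rims1 at 6.65 and 5.35. Bsn stood at 4.84 and 3.47, although the highest of the other 10 reached 5.22. Unc13a (Munc13-1), the priming factor, read 4.09, 4.46 and 5.66 in TA, 3.57, 4.31 and 5.65 in FC and 3.39, 4.33 and 5.47 in EXT, with -0.21 ± 0.16 (limma adjusted p = 0.336) and -0.29 ± 0.12 with categories. Rims2, Rims3 and Rims4 had 0.20 ± 0.12, -0.11 ± 0.13 and -0.08 ± 0.12, and Rims2 turned to -0.05 with categories.

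All 6 vesicle membrane genes had negative fold changes, where 49.2% of all genes did, and 1 passed the FDR, where 21.4% did. Syn1 (synapsin I), which ties vesicles into the reserve pool, read 7.80, 8.32 and 8.81 in TA, 7.0, 8.12 and 8.71 in FC and 7.23, 7.61 and 9.07 in EXT. Of 16 EXT libraries 14 were under the TA median, and the fold change was -0.51 ± 0.14 (limma adjusted p = 0.0166) and -0.45 ± 0.16 with categories (unadjusted p = 0.0079). Syn2 had -0.29 ± 0.12 and -0.28 ± 0.13. Sv2a, a vesicle glycoprotein that binds the drug levetiracetam, and Syp (synaptophysin), a partner of Vamp2, had -0.55 ± 0.21 and -0.45 ± 0.18 with batch as a number and -0.22 ± 0.18 and -0.13 ± 0.14 with categories. Sv2b had -0.37 ± 0.18 and -0.32 ± 0.21, while Sv2c, at -0.14 ± 0.19, had 0.13 ± 0.14 with categories.

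Rab3 proteins are the GTPases of secretory vesicles. Of the 6 genes for them and their regulators 2 passed the FDR, where 21.4% of all genes did. Rab3b read 6.71, 7.17 and 7.64 in TA, 6.89, 7.25 and 7.99 in FC and 6.07, 6.60 and 7.78 in EXT, and 15 of 16 EXT libraries were under the TA median. Its fold change was -0.48 ± 0.13 (limma adjusted p = 0.0151) and -0.29 ± 0.13 with categories, though the batch differences were 0.06, -0.82 and -0.09 in batches 1, 2 and 5. Rab3a, the most abundant of them, read 9.92, 10.10 and 10.38 in TA, 9.73, 10.08 and 10.46 in FC and 8.79, 9.90 and 10.36 in EXT, with -0.43 ± 0.13 (limma adjusted p = 0.0245), which shrank to -0.15 ± 0.11 with categories. The 6 EXT libraries of batches 3 and 4 had a Rab3a median of 9.12 and the other 10 one of 10.05, near the TA median of 10.10. Rab3c had 0.02 ± 0.08. Rab3gap1 and Rab3gap2, the subunits of the complex that makes Rab3 hydrolyse GTP, had -0.33 ± 0.13 and -0.23 ± 0.15, and -0.44 ± 0.12 and -0.45 ± 0.15 with categories (unadjusted p = 0.000987 and 0.00467), where Rab3gap1 had the smallest p of all members. Rab3ip, an activator of Rab8, had -0.10 ± 0.13.

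The 8 other Rab genes taken by the letters of the rule, which act mainly in Golgi and endosome traffic, held no call at FDR. Rab31 had 0.51 ± 0.23, Rab33a -0.29 ± 0.13, Rab30 0.31 ± 0.16 and Rab33b 0.20 ± 0.11, while Rab34, Rab35, Rab36 and Rab39b lay between -0.09 and 0.15.

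The 17 SNAREs outside the neuronal fusion complex act in the plasma membrane of other cells, the Golgi, endosomes and autophagosomes. Of these 17 genes 4 passed the FDR, where 21.4% of all genes did. Snap47, a SNAP25 relative present on intracellular membranes of neurons, read 9.06, 9.38 and 9.92 in TA, 8.82, 9.31 and 9.82 in FC and 7.83, 8.94 and 9.52 in EXT. Of 16 EXT libraries 14 were under the TA median, with -0.67 ± 0.15 (limma adjusted p = 0.013) and -0.39 ± 0.14 with categories (unadjusted p = 0.00904). Stx12, a syntaxin of recycling endosomes, read 7.61, 7.85 and 8.16 in TA, 7.22, 7.88 and 8.03 in FC and 6.87, 7.47 and 8.10 in EXT, with -0.37 ± 0.10 (limma adjusted p = 0.0168) and -0.21 ± 0.09. Stx2 and Stx4a, syntaxins of the plasma membrane, were higher. Stx2 read 2.85, 3.77 and 4.25 in TA, 3.30, 4.00 and 4.68 in FC and 3.53, 4.26 and 5.46 in EXT, with 0.59 ± 0.18 (limma adjusted p = 0.0245) and 0.20 ± 0.15 with categories. Stx4a read 5.07, 5.66 and 6.04 in TA, 5.04, 5.61 and 6.16 in FC and 5.00, 5.83 and 7.30 in EXT, with 0.54 ± 0.19 (limma adjusted p = 0.0415) and 0.19 ± 0.17. Its median was 6.84 in the 6 EXT libraries of batches 3 and 4 and 5.76 in the other 10. The rest were not called: Snap23, Stx3, Stx5a, Stx6, Stx7, Stx8, Stx16, Stx17, Stx18, Vamp3, Vamp4, Vamp7 and Vamp8 lay between -0.21 and 0.34. Vamp8, which acts in late endosomes and in secretory cells outside the brain, varied most, with 2.21, 5.88 and 8.12 in EXT and an SE of 0.48 around a fold change of 0.06.

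**Figure D3:**
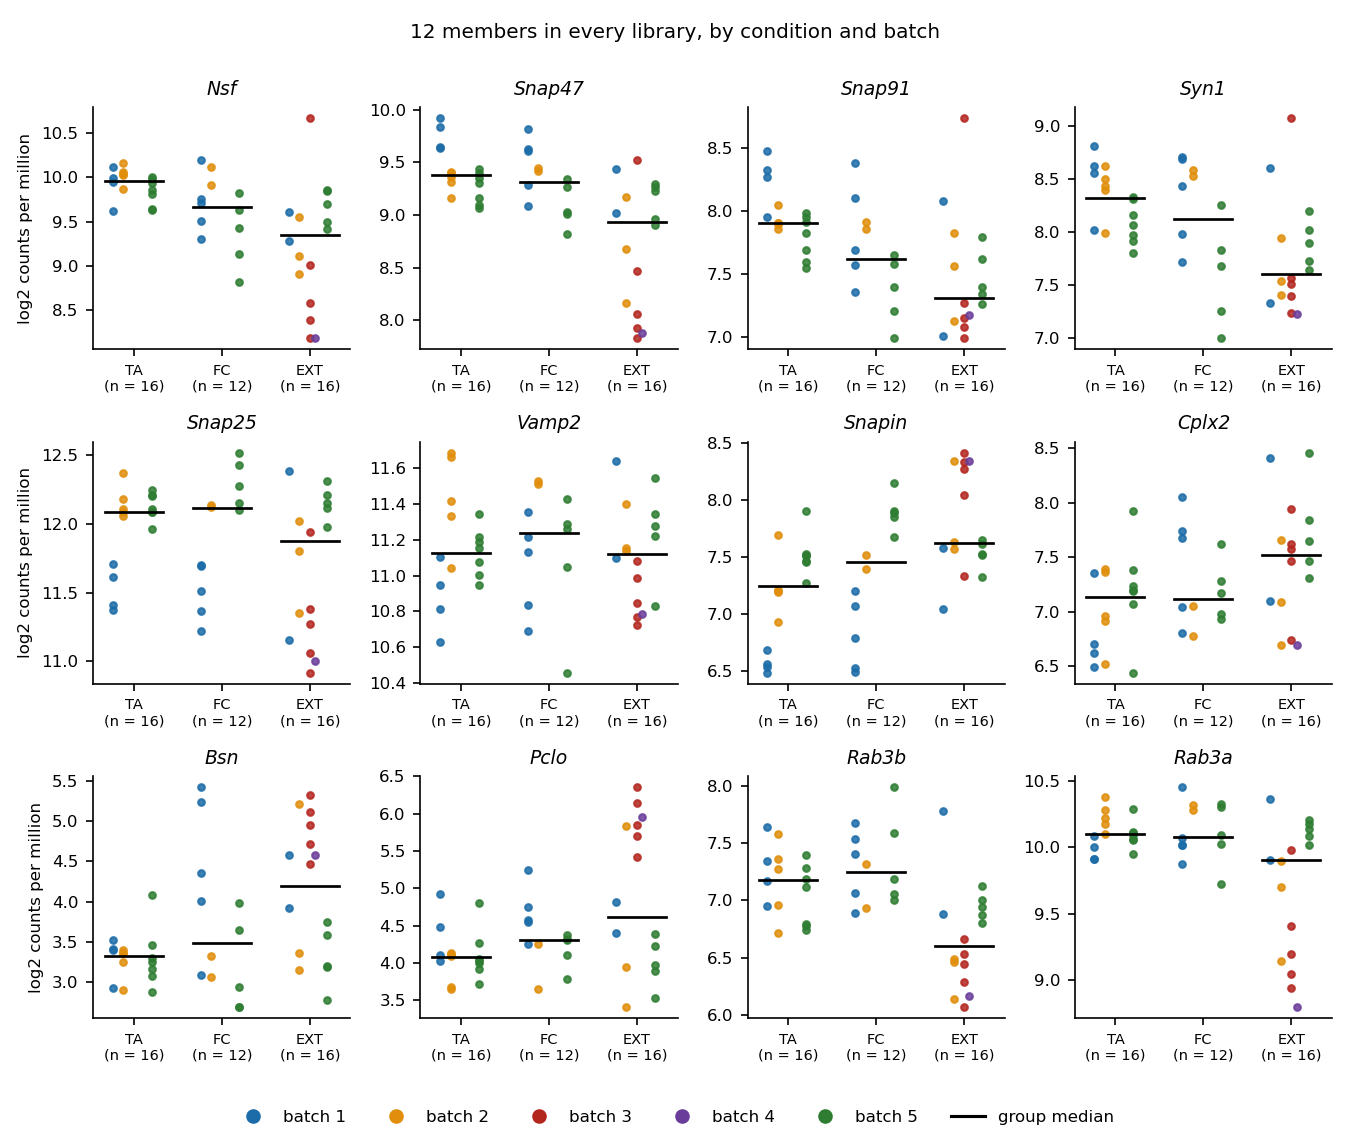
Log2 CPM of 12 members in each library by condition, coloured by batch, with a line at the group median. The 5 red points of batch 3 and the violet point of batch 4 are EXT libraries; for Nsf, Snap47, Snap91 and Syn1 the red points lie low except for 1 near the top.

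The EXT libraries of batches 3 and 4 were not alike. The library of animal 23 (batch 3) lay above the other 5 for 32 members, below them for 19 and among them for 23 (over all genes it was above for 30.0% and below for 33.8%). Nsf was 10.67 in animal 23 and 8.19 to 9.01 in the other 5. For Syn1 the values were 9.07 and 7.23 to 7.57 and for Snap47 9.52 and 7.83 to 8.47. The genes that were higher in EXT lay the other way: Snapin was 7.34 in animal 23 and 8.05 to 8.42 in the others, and Stx4a 5.52 and 6.65 to 7.30. The summed log2 level of mitochondrial transcripts and Malat1 was 12.72 in animal 23, 14.76 to 15.43 in the other 5, and 8.35 to 15.03 with a median of 9.73 in the 10 EXT libraries of other batches. Without animal 23, 22 members passed the FDR in limma, 15 lower and 7 higher, 29.7% where 26.0% of all genes did, and Nsf stood at -0.77. Without the other 5, no gene of the table passed, and 16 members were under the unadjusted p of 0.05, 21.6% where 11.8% of all genes were. Both of these fits were chosen after the values had been seen.

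Within the 3 batches that held both conditions, 20 members had a lower EXT than TA mean in every batch, 27.0% of members where 19.3% of all genes did, and 4 had a higher mean in every batch, 5.41% of members where 19.2% of all genes did. The 20 included Snap47, Stx12, Stx7, Vamp7, Sytl2, Stxbp5, Stxbp5l, Napb, Nsf, Snap91, Rims3, Rims4, Unc13a, Sv2b, Syn1, Syn2, Rab3gap1 and Rab3gap2, and the 4 were Syt7, Cplx2, Snapin and Rab39b. Snapin had 0.74, 0.60 and 0.003 in batches 1, 2 and 5, so batch 5 showed almost no difference for it. Batch 5, which held the most libraries, had the smallest of the 3 differences for Nsf and Snap91. Nsf had -0.47, -0.84 and -0.17 in batches 1, 2 and 5 and Snap91 had -0.71, -0.42 and -0.31. Snap25 had 0.24, -0.43 and 0.02, and so no common direction. Bsn, Pclo and Stx2 had higher EXT means in batches 1 and 2, and batch 5 did not share the direction. Over batches 1, 2 and 5 Bsn had 0.94, 0.65 and -0.01, Pclo 0.23, 0.46 and -0.11 and Stx2 0.51, 0.43 and -0.06. The Bsn difference in batch 2 rested on 1 EXT library, animal 21, at 5.22. The other EXT libraries of that batch read 3.36 and 3.14, and its TA libraries 2.90 to 3.40.

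**Figure D4:**
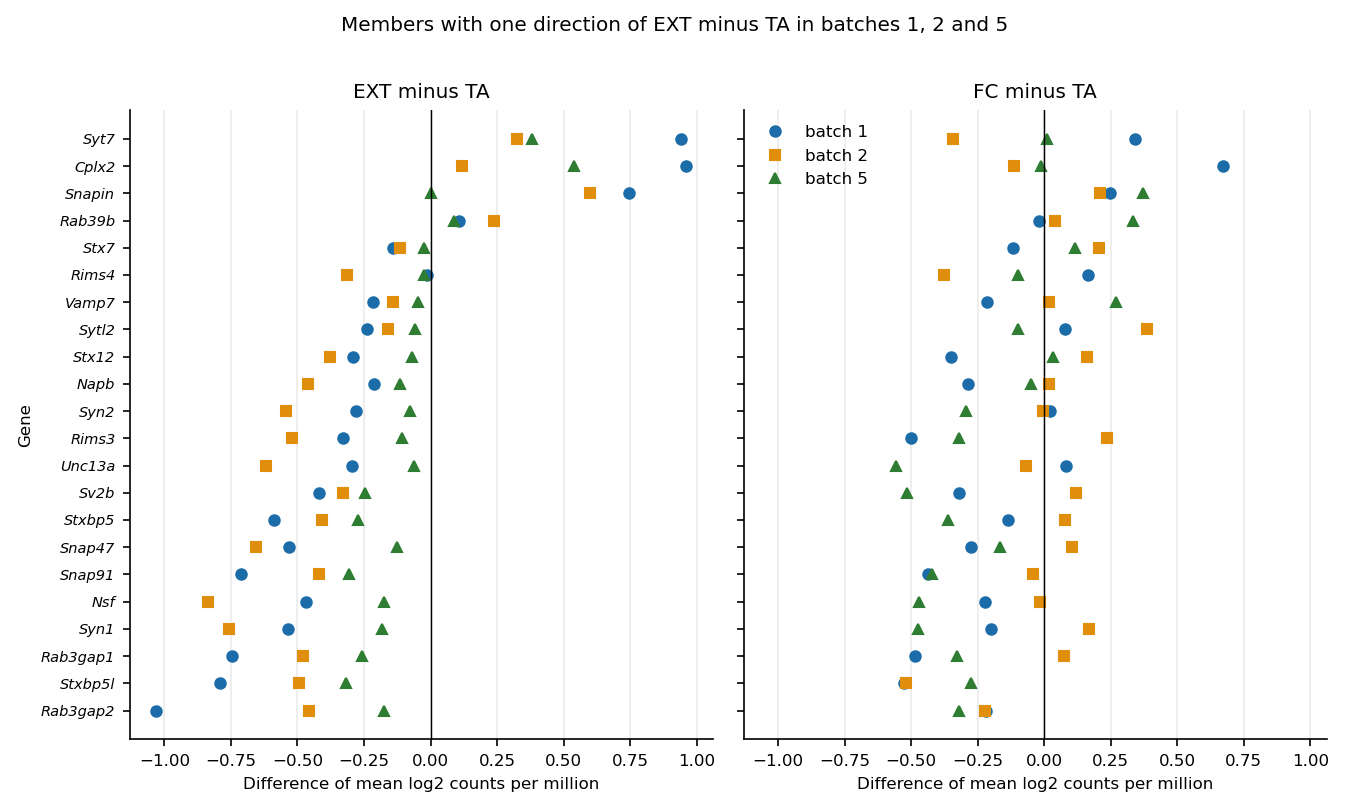
Difference in mean log2 CPM between EXT and TA (left) and FC and TA (right) in batches 1, 2 and 5, for 22 of the members with 1 direction of EXT minus TA in all 3 batches. The batch 5 triangles on the left lie nearest to 0 for most of the lower genes; FC and EXT are set against the same TA mice.

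Fear conditioning alone was compared with the tone control in 12 FC and 16 TA libraries. No member and no gene of the 8203 passed the FDR in limma. At the unadjusted p of 0.05, 11 members did (7 lower, 4 higher), 14.9% where 10.4% of all genes did, and with batch as categories 17 did (12 lower, 5 higher), 23.0% where 16.8% of all genes did. The 7 lower included Snap91, Nsf, Sv2b, Rab3gap2, Rims3 and Stxbp5l, and the 4 higher were Rab33b, Snapin, Vamp3 and Stx2. Snap91 had -0.34 ± 0.10 (unadjusted p = 0.00121, limma adjusted p = 0.303), with 9 of 12 FC libraries under the TA median. Nsf had -0.32 ± 0.11 (limma adjusted p = 0.356) with 10 of 12 under it. In the higher direction Rab33b, a Golgi Rab, read 5.18, 5.59 and 5.76 in TA, 5.33, 5.79 and 6.03 in FC and 5.12, 5.69 and 6.44 in EXT, with 0.22 ± 0.08 (limma adjusted p = 0.356). Snapin had 0.24 ± 0.11 (limma adjusted p = 0.43). Vamp3 (cellubrevin) read 4.37, 5.25 and 5.79 in TA, 4.63, 5.34 and 6.56 in FC and 3.75, 5.54 and 6.54 in EXT, with 0.31 ± 0.14 (limma adjusted p = 0.438). With categories Snap91 and Nsf stood at -0.35 ± 0.10 and -0.29 ± 0.10, and the 3 higher genes at 0.24 ± 0.07, 0.29 ± 0.09 and 0.36 ± 0.13.

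Set side by side, and sharing the same TA mice, the log2 fold changes of FC and EXT were -0.34 and -0.48 for Snap91, -0.32 and -0.69 for Nsf, and 0.24 and 0.57 for Snapin. For Rab3b they were 0.13 and -0.48, and for Snap47 -0.13 and -0.67. With batch as categories Snap91 had -0.35 and -0.44, and Stxbp5l -0.42 and -0.49. Within batches 1, 2 and 5 the FC mean was below TA in all 3 for 11 members, 14.9% where 16.8% of all genes were, and above in all 3 for 6, 8.11% where 17.1% of all genes were. Nsf, at -0.22, -0.02 and -0.47, and Snap91, at -0.44, -0.04 and -0.42, were among the 11, and Snapin, at 0.25, 0.21 and 0.37, was among the 6.

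Extinction was also compared with conditioning alone, in 16 EXT and 12 FC libraries. No member and no gene passed the FDR in limma, 11 members were under the unadjusted p (7 higher, 4 lower), 14.9% where 19.3% of all genes were, and 5 were with batch as categories, 6.76% where 4.19% of all genes were. Rab3b had the smallest p: -0.62 ± 0.15 (unadjusted p = 0.000237, limma adjusted p = 0.219), and -0.38 ± 0.14 with categories. Snap47 and Rab3a had -0.54 ± 0.18 and -0.44 ± 0.16 (limma adjusted p = 0.219 for both, with -0.23 ± 0.18 and -0.14 ± 0.14 with categories). On the positive side, Stx4a had 0.66 ± 0.22, Stxbp2 0.61 ± 0.21 and Rims2 0.34 ± 0.15 (limma adjusted p = 0.219, 0.219 and 0.227). Stxbp2 read 3.73, 4.77 and 5.59 in TA, 3.04, 4.52 and 5.62 in FC and 4.19, 4.87 and 6.23 in EXT, so that FC had the lowest median. With categories it had 0.66 ± 0.24 (unadjusted p = 0.0105). Its EXT minus FC differences were 0.17, 2.36 and 0.16 in batches 1, 2 and 5, and batch 2 held 2 FC and 3 EXT libraries. Rims2 read 5.37, 5.76 and 6.14 in TA, 5.08, 5.69 and 6.07 in FC and 5.20, 5.88 and 6.90 in EXT and had 0.12 ± 0.14 with categories. When all 3 groups were fitted together, 1 member, Rab3b, and 17 of all 8203 genes (0.207%) passed the FDR in limma in this comparison.

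Whether EXT against TA differed between the sexes was tested as an interaction, female minus male. No member and no gene passed the FDR in limma, and 4 members were under the unadjusted p, 5.41% where 4.13% of all genes were. The count depended on the fit: it was 6 with batch as categories, 8.11% where 6.02% of all genes were. Without batches 3 and 4 it was 13, 17.6% where 9.05% of all genes were. Without animals 22, 25, 44, 53 and 55 it was 10, 13.5% where 7.46% of all genes were. Syt4, a synaptotagmin of dense core and postsynaptic vesicles, had an interaction of -0.74 ± 0.24 (unadjusted p = 0.00447, limma adjusted p = 0.998). Its EXT against TA fold change was -0.54 ± 0.19 in females and 0.18 ± 0.14 in males, and over both sexes it read 5.97, 6.46 and 7.20 in TA, 6.05, 6.67 and 7.25 in FC and 5.66, 6.51 and 7.17 in EXT. Rab34, a Golgi and cilium Rab, had 0.84 ± 0.33 (unadjusted p = 0.0149), with 0.51 ± 0.25 in females and -0.32 ± 0.19 in males, and read 3.41, 4.72 and 5.36 in TA, 4.24, 4.60 and 5.13 in FC and 3.77, 4.56 and 5.44 in EXT. Stxbp6 (amisyn) had -0.48 ± 0.21 (unadjusted p = 0.0302), with -0.28 ± 0.21 and 0.21 ± 0.11, and read 5.29, 6.29 and 6.49 in TA, 5.27, 6.35 and 6.95 in FC and 5.50, 6.24 and 6.96 in EXT. The fourth was Rims3, at -0.57 ± 0.26.

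The wider vesicle cycle was read from a list of 78 other genes, of which 70 were in the table. In EXT against TA 13 of the 70 passed the FDR in limma, 10 lower and 3 higher, 18.6% beside the 21.4% of all genes, and 0 did with batch as categories, where 21 were under the unadjusted p (18 lower, 3 higher), 30.0% beside 21.1% of all genes (11% lower, 10.2% higher). The median log2 fold change was -0.13 against 0.01 over all genes, and 49 of 70 (70%) were negative, where 49.2% of all genes were. The 10 lower included the dynamins Dnm1 and Dnm3, which cut vesicles from the membrane, at -0.65 and -0.58, the phosphatase Synj1 at -0.36, the dynamin partner Amph at -0.39, the clathrin adaptor subunit Ap2a1 at -0.35 and the uncoating chaperone Hspa8 at -0.40. The third Nsf adaptor Napg was at -0.40, and Vps45 and Vps33b, partners of endosomal syntaxins, at -0.29 and -0.33. The 3 higher were Unc13c at 0.91, Vti1b, an endosomal SNARE, at 0.52, and Lin7a at 0.50. With batch as categories these 3 stood at 0.44, 0.32 and 0.20, and among the lower genes Dnm1 stood at -0.44, Dnm3 at -0.37 and Hspa8 at -0.27.

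Shares of variance between batches, conditions and sexes were each taken alone, and there were more batches than conditions. Batches 3 and 4 held only EXT libraries, so the share between batches also holds condition, and the shares do not rank them. A median of 36.6% of a member's variance lay between batches, 7.79% between conditions and 3.23% between sexes, against 41.5%, 7.93% and 3.86% over all genes. Rab33a, Unc13a and Pclo had the largest share between batches (70.8%, 69.9% and 68.6%) and Napb and Vamp1 the smallest (0.864% and 1.14%), and Rab3b and Snap47 had 36.8% and 36% between conditions. Among mice of 1 condition and batch the SD ran from 0.138 log2 units for Stx7 to 1.13 for Vamp8, with a median of 0.333 over members and 0.287 over all genes.

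After removing the mean of each combination of condition and batch with 3 or more mice (39 libraries in 8 combinations), members varied together in a partly opposed way. The first principal component held 24.0% of their scaled variance, where that of all genes held 18.5%. The sets differ in size, at 74 and 8203 genes, and no other set of 74 genes was examined, so these shares do not rank them. Syn1, Nsf, Syn2 and Snap47 had the largest loadings at 1 end and Stx4a, Snapin and Vamp8 at the other, and the pairwise correlations had a median of 0.01 and ran from -0.46 at the fifth percentile to 0.57 at the 95th. A set of 8 known pairs was examined, chosen after the fold changes had been seen, with p-values from 100000 permutations within combinations and adjusted over the pairs, and 7 of them are described. Syn1 and Syn2 had r = 0.91 and rho = 0.86 (adjusted permutation p = 2.67e-05 for each, from the smallest p these permutations can give), and r = 0.85 without the 2 libraries farthest from the Syn1 median. For Rab3gap1 and Rab3gap2 r was 0.71 and rho 0.71 (adjusted permutation p = 2.67e-05 for each), and 0.66 without 2 libraries. Bsn and Pclo had r = 0.57 and rho = 0.54 (adjusted permutation p = 0.0133 and 0.00504), and 0.53 without 2. The remaining 4, Snap25 with Vamp2, Nsf with Napb, Rab3a with Rab3b and Cplx1 with Cplx2, had r of 0.39, 0.70, 0.40 and 0.39, with rho of 0.51, 0.52, 0.40 and 0.41 and, without 2 libraries, r of 0.47, 0.55, 0.35 and 0.40 (adjusted permutation p = 0.0133, 0.00458, 0.0185 and 0.0200 for r, and 0.00504, 0.00712, 0.0223 and 0.0189 for rho). The permutation p-values do not compare a pair with other pairs of members. Of all 2701 pairs of members, 87.49%, 87.97% and 87.63% had a lower r than Snap25 with Vamp2, Rab3a with Rab3b and Cplx1 with Cplx2. An r of this size was thus not rare among members. The share was 95.04% for Bsn with Pclo and 97.70% for Nsf with Napb. It was 97.96% for Rab3gap1 with Rab3gap2 and 99.93% for Syn1 with Syn2. Libraries share RNA quality and depth across genes, and the part of these in the correlations was not tested.

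The transcription factor CREB, known for its role in memory, binds the cAMP response element (CRE), and start-site sequences were searched for it. RefSeq windows (GRCm38.p6) around annotated start sites were found for 57 members, with 71 windows. The full CRE, TGACGTCA, which reads the same on both strands, was in 3 of the 71, or 4.23%, and in 1.79% of all 32851 windows, and the shorter TGACG, searched on both strands and contained in the full one, was in 23.9% and 20.8%. The 3 windows with the full element are shown because they are the members' only such windows, with the element in capitals. They are Syn1 at chrX:20920869-20921168 on the minus strand, Napa at chr7:16098330-16098629 on the plus strand and Stxbp3 at chr3:108840453-108840752 on the minus strand, and the element starts 159, 7 and 108 bases before the start.
Syn1: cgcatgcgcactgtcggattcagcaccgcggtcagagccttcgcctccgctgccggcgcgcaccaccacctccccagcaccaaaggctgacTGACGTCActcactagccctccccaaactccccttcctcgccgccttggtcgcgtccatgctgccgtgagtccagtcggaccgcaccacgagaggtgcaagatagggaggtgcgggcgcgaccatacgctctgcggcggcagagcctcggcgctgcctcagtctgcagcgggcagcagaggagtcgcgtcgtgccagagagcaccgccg
Napa: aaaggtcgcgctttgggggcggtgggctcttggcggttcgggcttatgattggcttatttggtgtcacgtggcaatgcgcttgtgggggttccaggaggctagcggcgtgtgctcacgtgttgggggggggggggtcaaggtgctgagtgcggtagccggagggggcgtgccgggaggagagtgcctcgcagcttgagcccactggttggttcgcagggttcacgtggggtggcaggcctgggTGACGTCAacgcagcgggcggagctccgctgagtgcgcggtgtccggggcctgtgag
Stxbp3: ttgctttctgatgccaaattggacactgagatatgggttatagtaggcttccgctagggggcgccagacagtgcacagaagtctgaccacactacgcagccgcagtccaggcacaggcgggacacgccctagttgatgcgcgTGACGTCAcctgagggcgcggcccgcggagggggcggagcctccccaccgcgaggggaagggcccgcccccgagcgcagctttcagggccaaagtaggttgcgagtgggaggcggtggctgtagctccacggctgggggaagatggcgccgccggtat
Of these, Syn1 was called lower in EXT against TA, at -0.51, and Napa and Stxbp3, at -0.12 and 0.08, were not called. A match of letters is not a shown binding site.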

How the data were processed

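TRAP RNA of 44 mice, 1 library each, was sequenced. As deposited, the table holds log2 CPM (counts scaled to library size) made by the authors with voom, after trimming with Trimmomatic 0.36, mapping to GRCm38 with STAR, counting per gene and, by the methods, keeping genes over 4 CPM in all samples. Of the 8203 genes deposited, 57, Vamp8 among them, lay under 4 CPM in at least 1 library. The authors also left out samples by behaviour and outlier criteria. Whole reads were recovered from all 360932 values to within 0.01 after taking off the 0.5 that voom adds, which gave the library sizes and 1 further fit. The values were tested on the log2 scale with limma 3.58.1 (R 4.3.3), two-sided, with Benjamini-Hochberg adjustment over all 8203 genes and an FDR of 0.05. EXT was compared with TA, FC with TA and EXT with FC, using the samples of the groups compared, sex, and batch number as a numeric term, and the sexes were compared by an interaction term. The study's methods name batch and sex as controls without their coding, so batch as categories is given beside it. Sex labels were used as given. The fits were tested on simulated reads that held no batch effect. That test cannot show how the fits act where batch and condition cannot be told apart.

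The members, roles and gene lists were chosen with earlier results of these data known. Some genes that enter the counts are not reported here. Full values are otherwise given for the neuronal fusion core, the 8 members with the smallest p in each direction of EXT against TA, the 3 in each direction of FC against TA and EXT against FC, and the 3 with the smallest p in the sex difference. Summed levels of marker lists are log2 of summed CPM. Each animal is a separate sample, and the p-values treat animals as independent. With batch as a number, a shift shared by the EXT libraries of the batches without a control can stay in the condition term. The p-values of that fit therefore do not measure the spread between animals alone. Alternatives changed the batch term, samples, filter, pseudocount, scaling, variance model and covariates. Promoter windows came from RefSeq (GRCm38.p6).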

Additional observations from a re-analysis of the deposited data

How the results depend on the processing

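In EXT against TA the count of 15 members at an FDR of 0.05 in limma became 0 in each of 7 alternatives, in which 0 to 5 of all genes passed. The unadjusted p of 0.05 then held 19 members (25.7%, with 21.1% of all genes) with batch as categories, 18 (24.3%, 18.8%) without batches 3 and 4, 14 (18.9%, 16.5%) without animals 22, 25, 44 and 53 (whose place in the labels does not follow their number), 14 (18.9%, 22.1%) with array weights, 4 (5.41%, 5.47%) with log2 library size as a covariate, 17 (23.0%, 15.8%) with a mitochondrial and Malat1 covariate and 16 (21.6%, 11.8%) without animals 22, 25, 44, 53 and 55. At FDR it was 22 (29.7%, with 26.0% of all genes) without animal 23 and 13 to 18 in the remaining alternatives, where 18.8% to 27.1% of all genes tested passed. The last fit of the 7 and that without animal 23 were added after the data had been seen. The 15 called members kept their sign in all alternatives in which they were tested. These fits share libraries with the fit that chose the 15, so a kept sign is not a separate test. In EXT against FC, fitting all 3 groups together gave 1 member, Rab3b, in place of 0, with 17 of all genes. FC against TA and the sex difference gave 0 under every alternative. The sign of EXT against TA changed for 18 of 74 members with batch as categories. Log2 fold changes that changed sign are given here for the uncalled genes with full values under the naming rule, not for other members. With batch as categories Vamp2 was 0.1033, Rab33b -0.0588, Rims2 -0.0458, Rab34 0.2696 and Stxbp6 -0.0900. Without batches 3 and 4 they were 0.1128, -0.0549, -0.0485, 0.2844 and -0.0846. Without animals 22, 25, 44, 53 and 55 they were 0.0857, -0.0227, -0.0230, 0.2357 and -0.0570. Without animals 22, 25, 44 and 53 Vamp2 was 0.0420 and Rab34 0.1688. With array weights Vamp2 was 0.0304, Stxbp2 -0.0017 and Syt4 0.0870. With the mitochondrial and Malat1 covariate Snap25 was 0.0125, Vamp2 0.1281, Napa 0.0163, Rab33b -0.0046, Rims2 -0.0296 and Rab34 0.2193. Rab34 was 0.1106 with library size, 0.2106 with the choroid plexus covariate and 0.0051 without animal 23, and Stxbp6 was -0.0734 with the choroid plexus covariate. The cause of these changes was not tested. No paired analysis was possible because the labels give no numbers that pair animals across groups.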
